A study of Homo sapiens with 3 samples.

Results

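Lysosomes are acidic organelles in which hydrolases break down proteins, lipids and glycans, and autophagy delivers the cell's own material to them inside double-membraned autophagosomes. A proton pump, the vacuolar ATPase (V-ATPase), keeps the lysosome acidic. Transcription factors of the MiT/TFE family (TFEB, TFE3 and MITF) are known to bind E-box sequences of the CLEAR type in front of many lysosomal genes when lysosomes are stressed. Tamoxifen is a cationic amphiphilic drug, a class known to gather in lysosomes, and this makes these genes of interest in cells given the drug.

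The genes described here are 35 named lysosome and autophagy genes together with every gene whose symbol starts with ATP6V. They were found through probe sets (groups of short probes against 1 transcript) annotated to exactly 1 symbol. This gave 136 probe sets for 56 genes, of 54675 probe sets on the array, of which 41097 carried 1 symbol for 19775 genes. All 35 named genes had a probe set, and 21 ATP6V genes were found. One of these, ATP6V0E2-AS1, is an antisense RNA and not a pump subunit.

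RNA of MDA-MB-231, an established human breast cancer line usually grouped with the basal-like, receptor-negative ones, was hybridised to Affymetrix arrays. The line was given tamoxifen at 1 µM, estradiol at 1 µM or vehicle (0.1% ethanol). Each lasted 3 h, and before it all cells had spent 4 h in 10% serum that was charcoal-stripped. Estradiol is the main natural estrogen, and charcoal stripping removes steroid hormones from serum. Each group held 1 sample, labelled as 1 array, and how many cultures went into it is not stated. So no replicate error, interval or p-value can be given, and each difference below compares 1 array with 1 other. By its title, the study asked about early effects of tamoxifen on expression.

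The deposited values are on a log2 scale and centred for each probe set on a baseline that is not stated; base 2 and the direction (higher meaning more RNA) are taken from the authors' use of RMA and are not stated either. Differences between columns of the same probe set cancel a shared baseline. The vehicle values of named genes spread less (SD 0.20) than those of tamoxifen (0.49) and estradiol (0.49), so ligand minus vehicle differences are repeated after doubling the vehicle value, and which setting is closer to the true difference was not tested. Whether the vehicle column holds 1 array's values or an average of several is not known, and this limits what every ligand minus vehicle difference below means. Probe sets were kept when the binary steps of their stored numbers placed them at a log2 level of at least 4, called the brightness floor. A gene passed the size rule when 2 arrays differed by at least 1.5-fold (0.58 on the log2 scale). A lower value can come from less RNA per cell or from fewer cells of a kind, which bulk RNA cannot tell apart.

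As for the arrays as a whole, 7 of 8 markers of MDA-MB-231 lay above the floor, all in the brightest band (levels of 8 or more), against 4 of 8 luminal breast markers, 2 of 7 leukocyte markers with probe sets and 4 of 7 fibroblast and endothelial markers. SPARC was the marker of the line below the floor. Of the luminal markers above it, GATA3 and AGR2 also lay in the brightest band. XBP1 and ESR1, the estrogen receptor gene, had a level between 4 and 8. Hybridisation spikes, which are control RNAs added after labelling, differed by a median of 0.10 for tamoxifen minus vehicle, 0.18 for estradiol minus vehicle and -0.12 for tamoxifen minus estradiol over 18 probe sets. Poly-A spikes, which are added before labelling, differed by 0.84, 0.99 and -0.16 over 27 probe sets. Among the control probe sets along the ACTB transcript, the one nearest the 5′ end was lower with tamoxifen than with estradiol (difference -0.996), the middle one differed by -0.42 and the 3′ one by -0.05. For GAPDH the same differences were -0.04, -0.12 and 0.07. The part of these shifts in the gene values below was not tested.

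The E-box shared by promoters of the group is shown first, because it is the sequence through which the MiT/TFE factors are known to act. RefSeq promoter windows (GRCh38.p14, 250 bases before to 50 after the gene start) were at hand for 43 of the 56 genes. LAMP2 and EPG5 were among the 13 without one. The letters GTCACGTG, read on both strands, stood in 8 of the 43 (18.6%), against 543 of 15384 windows of all named genes on the array (3.5%) and 690 of 27305 windows in all (2.5%). The shorter core CACGTG, which these matches contain, stood in 11 of 43 (25.6%) against 8.9% and 7.4%. A match describes the letters and is no evidence of binding. In the stretches below, which lie wholly before the gene start and are written 5′ to 3′ on the strand of the gene, capitals mark the CACGTG core of each GTCACGTG match. The coordinates are those of GRCh38.p14.
LAMP1, chr13:113297035-113297228, plus strand: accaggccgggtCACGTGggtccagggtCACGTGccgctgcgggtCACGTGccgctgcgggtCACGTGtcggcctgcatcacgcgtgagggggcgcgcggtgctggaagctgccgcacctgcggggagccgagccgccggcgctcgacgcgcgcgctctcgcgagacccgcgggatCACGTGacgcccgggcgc
MCOLN1, chr19:7522571-7522623, plus strand: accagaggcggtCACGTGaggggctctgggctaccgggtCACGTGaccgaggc
CTSA, chr20:45891281-45891327, plus strand: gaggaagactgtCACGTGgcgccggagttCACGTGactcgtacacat
CTSD, chr11:1763957-1763986, minus strand: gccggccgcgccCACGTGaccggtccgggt
ATP6V0B, chr1:43974891-43974920, plus strand: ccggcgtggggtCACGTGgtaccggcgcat
ATP6V0D1, chr16:67481199-67481228, minus strand: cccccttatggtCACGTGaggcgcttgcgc
ATP6V1G1, chr9:114587699-114587728, plus strand: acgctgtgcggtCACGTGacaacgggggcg
ATG3, chr3:112561963-112561992, minus strand: cctttctcacgtCACGTGccgggagagtct

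LAMP1 holds 5 such cores before its start and 1 more across it, the most of these genes, and CTSA and MCOLN1 hold 2 each before the start. ATG3 holds 1 before and 1 after. Thus a major membrane protein, a channel, 2 hydrolases, 3 pump subunits and a conjugation enzyme share the letters.

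The group was bright. In the brightest band lay 36 of the 56 genes (64.3%), against 25.2% of all named genes, and a further 18 lay between 4 and 8. That left 54 genes and 104 probe sets above the floor. The 2 genes below it were ATP6V1G2 and ATP6V1G3, pump subunits known from neurons and kidney, each with 1 probe set in the band from 2 to 4.

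Few of the 54 genes passed 1.5-fold in any comparison. For tamoxifen minus vehicle 3 genes were higher past the rule (5.56%, against a background of 6.97% of all 12077 named genes above the floor) and 0 were lower (background 4.33%). These were ATP6V0D2, LAMP2 and CTSL. For estradiol minus vehicle 5 were higher (9.26%, background 5.83%) and 0 lower (background 2.65%), namely the same 3 with MAP1LC3B and GABARAPL2. Tamoxifen minus estradiol had 0 higher (background 1.56%) and 1 lower, EPG5 (1.85%, background 2.2%). With the vehicle doubled the calls were others: ATG16L1 higher (background 7.15%) and CTSD and EPG5 lower (background 3.64%) with tamoxifen, and ATG16L1, ATP6V0D2, CTSH and CTSL higher with estradiol (background 4.39%) with 0 lower (background 1.92%). None of the 3 tamoxifen calls was made in both settings, and 2 of the 5 estradiol calls were, those of ATP6V0D2 and CTSL.

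What the group did show was a small difference spread over many genes between the 2 ligands. The tamoxifen value was below the estradiol value in 45 of the 54 genes (83.3%), against 53.1% of all named genes, with a median of -0.12 against -0.02. The estradiol value was above vehicle in 44 of the 54 (81.5%, against 53.3%), with a median of 0.18 against 0.02. With the vehicle doubled the shares were 81.5% against 61% and the medians 0.17 against 0.07, a smaller gap. As deposited, this lean depended on the probe sets used. Its median was 0.04 when all probe sets of a gene were averaged, with 36 of 54 above 0. Without probe sets of the _x_at and _s_at types it was 0.04, with 26 of 37 above 0. The counts of 45 and 44 both use the 1 estradiol array and so are not independent of each other. For tamoxifen minus vehicle the group was divided, with 28 genes above 0 and 26 below, and its median was 0.05 against 0.02. The tamoxifen minus estradiol median of -0.12 was as large as the spike difference of -0.12 given above, and the part of labelling and hybridisation in it was not tested. Of the cell line's own markers 6 of 7 were below 0 in this comparison too (median -0.06), as were 3 of 4 luminal markers (median -0.31, with ESR1 at -0.75 and XBP1 at -0.43) and 3 of 4 fibroblast and endothelial ones (median -0.06), while 1 of 2 leukocyte markers was. AGR2, a luminal secretory protein, stood at 3.67 with tamoxifen, 3.87 with estradiol and 1.89 with vehicle. It was above vehicle by 1.78 and 1.98, against -0.11 and 0.09 with the vehicle doubled. The part of these markers in the lean was not tested. Ribosomal protein genes, another bright group, differed the other way (median 0.06 over 52 genes, 42 of them above 0).

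**Figure D1:**
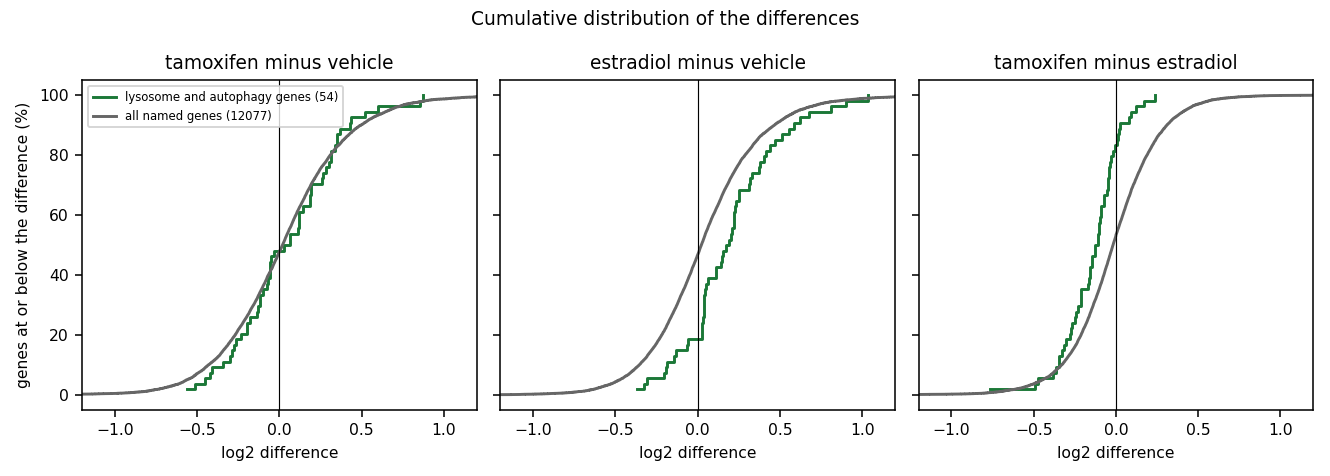
Cumulative share of genes (y axis, percent) at or below each log2 difference (x axis, cut at 1.2 either side of 0) for the 54 lysosome and autophagy genes (green) and all 12077 named genes above the floor (grey), 1 panel per comparison. The green line lies near the grey one for tamoxifen minus vehicle, to its right for estradiol minus vehicle (median 0.18 against 0.02) and to its left over most of its range for tamoxifen minus estradiol (median -0.12 against -0.02).

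Probe sets taken singly gave a weaker lean. Of 104 member probe sets above the floor, 73 were below 0 for tamoxifen minus estradiol (70.2%, against 51.8% of all 20827 named probe sets) and 70 were above 0 for estradiol minus vehicle (67.3%, against 52.9%). Probe sets of 1 gene are a rough guide to how far readings of that gene differ on the same arrays. They need not read the same part or form of its RNA. Because they share the arrays, their spread leaves out error that a whole array or culture has in common. Among the 26 genes with several probe sets above the floor, all probe sets had 1 sign in 12 genes for tamoxifen minus estradiol, in 14 for estradiol minus vehicle and in 13 for tamoxifen minus vehicle. The median SD between probe sets of 1 gene was 0.17, 0.25 and 0.17 in the same order.

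The MiT/TFE factors showed no difference past the rule. TFE3 stood at -0.04 on the tamoxifen array, 0.05 on the estradiol array and 0.01 on the vehicle array. MITF stood at -0.20 with tamoxifen, 0.04 with estradiol and -0.07 with vehicle. These 2 genes were lowest with tamoxifen, with tamoxifen minus estradiol differences of -0.09 and -0.24. A dimmer probe set of MITF, also above the floor, gave 0.31 in this comparison, and one of TFE3 gave 0.19. TFEB went the other way, at 0.16 with tamoxifen, -0.08 with estradiol and -0.11 with vehicle. Its 2 probe sets gave tamoxifen minus vehicle differences of -0.06 and 0.59, so the gene value of 0.27 is the mean of 2 readings that differ. These factors are known to be controlled largely through phosphorylation and entry into the nucleus, which RNA does not show.

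Among the membrane proteins, LAMP2 stood apart from LAMP1. Both are heavily glycosylated proteins that line the lysosomal membrane, and LAMP2 also serves in chaperone-mediated autophagy. LAMP2 stood at 1.23 on the tamoxifen array, 1.28 on the estradiol array and 0.37 on the vehicle array. It was thus 1.81-fold higher with tamoxifen than with vehicle (0.86) and 1.87-fold higher with estradiol (0.90), while the 2 ligands differed by -0.05. All 4 of its probe sets lay above the floor, and all were higher than vehicle with both ligands, by 0.76 to 0.95 with tamoxifen and by 0.54 to 1.27 with estradiol. With the vehicle doubled the differences were 0.48 and 0.53, under the rule. For LAMP2 no promoter window was at hand, so E-box letters could not be looked for in it. LAMP1, with the E-box cores printed above, stood at -0.31 with tamoxifen, -0.16 with estradiol and -0.03 with vehicle. Its differences from vehicle were -0.28 and -0.13, and each of its 4 probe sets was below 0 in both comparisons.

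The tetraspanin CD63, another membrane protein of late endosomes and lysosomes, stood at -0.12 with tamoxifen, -0.07 with estradiol and a value close to 0 with vehicle. MCOLN1 encodes the calcium channel TRPML1, whose opening is known to activate TFEB. It stood at -0.27 with tamoxifen, at a value close to 0 with estradiol and at -0.21 with vehicle, so that tamoxifen minus estradiol was -0.27. By gene value all 4 of these membrane genes were below estradiol with tamoxifen, by 0.05 to 0.27. Single probe sets did not all go this way. Of the 4 of LAMP2, 3 were above 0 in this comparison (up to 0.22) and 1 was below (-0.32). Of the 4 of LAMP1, 1 was above 0 (0.11).

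**Figure D2:**
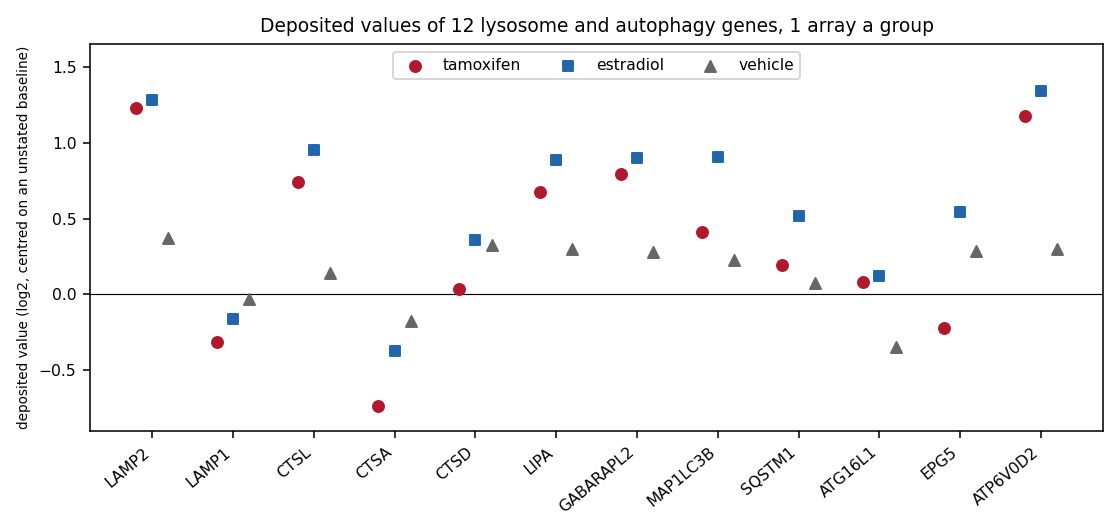
Deposited log2 values (y axis, centred on an unstated baseline) of 12 genes on the tamoxifen (red circles), estradiol (blue squares) and vehicle (grey triangles) arrays, 1 array a group and no error bars. LAMP2 is high on both ligand arrays (1.23 and 1.28) against vehicle (0.37), EPG5 is low with tamoxifen (-0.22) against estradiol (0.54), and MAP1LC3B is at 0.41 with tamoxifen against 0.90 with estradiol.

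The cathepsins, the main lysosomal proteases, did not move as a block. CTSL, a cysteine protease, stood at 0.74 with tamoxifen, 0.95 with estradiol and 0.14 with vehicle. That is 1.51-fold higher with tamoxifen (0.60, just past the rule) and 1.76-fold higher with estradiol (0.81), from its 1 probe set. With the vehicle doubled these were 0.46 and 0.67, the second still past the rule. CTSH, an aminopeptidase, was higher by 0.43 with tamoxifen and by 0.56 with estradiol, both under the rule. With the vehicle doubled it was higher by 0.46 and 0.59, the second just past the rule.

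CTSA, which protects NEU1 and the beta-galactosidase of the lysosome, was as deposited the lowest member against vehicle with tamoxifen. It stood at -0.74 with tamoxifen, -0.37 with estradiol and -0.17 with vehicle. Its tamoxifen minus vehicle difference was -0.56, just short of the rule, or -0.39 with the vehicle doubled. In that setting EPG5 was the lowest member (-0.80). CTSD, an aspartic protease and a classical estrogen-induced gene in receptor-positive breast cells, stood at 0.03 with tamoxifen, 0.36 with estradiol and 0.32 with vehicle. Its estradiol minus vehicle difference was 0.04 and its tamoxifen minus vehicle difference -0.29, or -0.61 with the vehicle doubled. CTSB, another cysteine protease, differed by -0.05 and -0.06 from vehicle, although its 5 probe sets spread between -0.16 and 0.34 with tamoxifen. CTSZ, a carboxypeptidase, differed by -0.07 with tamoxifen and 0.24 with estradiol. For tamoxifen minus estradiol 5 of the 6 cathepsins were below 0, down to -0.36 for CTSA, and the median was -0.26.

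The other enzymes of the lysosome and their activator leaned the same way. LIPA, the acid lipase that frees cholesterol and fatty acids from lipoproteins, stood at 0.67 with tamoxifen, 0.88 with estradiol and 0.30 with vehicle. Its differences from vehicle were 0.37 and 0.58 (1.29-fold and 1.498-fold, just under the rule), and 0.07 and 0.28 with the vehicle doubled. NEU1, a sialidase, was higher than vehicle by 0.35 with tamoxifen and 0.51 with estradiol. PSAP, the precursor of the saposins that help degrade sphingolipids, differed by -0.18 and 0.20, and by -0.38 between tamoxifen and estradiol. Its 2 probe sets gave -0.43 and -0.33 for tamoxifen minus estradiol. GLA (alpha-galactosidase A) and HEXA (a beta-hexosaminidase subunit) differed from vehicle by at most 0.13 in size. The 4 probe sets of TPP1, a tripeptidyl peptidase, disagreed, with tamoxifen minus vehicle differences between -0.54 and 0.72, so its gene value of 0.07 describes none of them.

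The V-ATPase couples ATP hydrolysis in its cytosolic V1 sector to proton passage through its membrane V0 sector. Of 20 subunit genes 18 lay above the floor. As deposited 1 gene (5.56%) was higher past the rule than vehicle with each ligand, near the backgrounds of 6.97% with tamoxifen and 5.83% with estradiol. The medians of the 18 were 0.08 for tamoxifen minus vehicle, 0.14 for estradiol minus vehicle and -0.10 for tamoxifen minus estradiol. In the last, 15 of the 18 were below 0 (83.3%, against 53.1% of all named genes).

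The gene that passed was ATP6V0D2, a V0 subunit isoform best known from osteoclasts and macrophages. It stood at 1.17 with tamoxifen, 1.34 with estradiol and 0.30 with vehicle, which is 1.83-fold and 2.05-fold higher than vehicle (0.87 and 1.04). With the vehicle doubled these were 0.57 and 0.74. Its 2 other probe sets lay below the floor, in the band from 2 to 4. As deposited they were also above vehicle, by 0.58 and 0.69 with tamoxifen and by 1.32 and 0.84 with estradiol. With the vehicle doubled they gave -0.02 and 0.34 with tamoxifen and 0.73 and 0.48 with estradiol. The sister subunit found in most cells, ATP6V0D1, stood at -0.32 with tamoxifen, -0.05 with estradiol and 0.09 with vehicle, a tamoxifen minus vehicle difference of -0.41. The 2 isoforms of this subunit thus lay on opposite sides of vehicle.

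Other V0 genes were also below vehicle. ATP6V0C, the proteolipid that forms the rotor ring, differed by -0.42 with tamoxifen and -0.33 with estradiol, with both of its probe sets below 0. ATP6V0A1, an isoform of the large membrane subunit, differed by -0.35 and -0.37. ATP6V0B, another ring subunit, was above vehicle by 0.26 and 0.31. The 6 probe sets of ATP6V0E1 above the floor ran from -1.37 to 0.46 for estradiol minus vehicle, the widest disagreement of the group. In the V1 sector the gene values of all 10 genes above the floor were above vehicle with estradiol, by 0.03 to 0.40. With tamoxifen 6 of 10 were. Among all named genes 53.3% were above vehicle with estradiol and 52.1% with tamoxifen. Single probe sets above the floor were less uniform with estradiol. Of the 3 of ATP6V1D, 2 were below vehicle (lowest -0.25), as was 1 of the 2 of ATP6V1H (-0.45). ATP6V1B2, the nucleotide-binding B subunit of most cells, had the highest V1 gene value with estradiol (0.40), and differed by 0.19 with tamoxifen. ATP6V1E2, a stalk subunit isoform known from testis, had the lowest tamoxifen minus estradiol difference of the pump (-0.47). One of the 4 probe sets of ATP6V1C1, a stalk regulator, gave 0.82 and 1.08 against vehicle while the others gave at most 0.35 and 0.13.

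**Figure D3:**
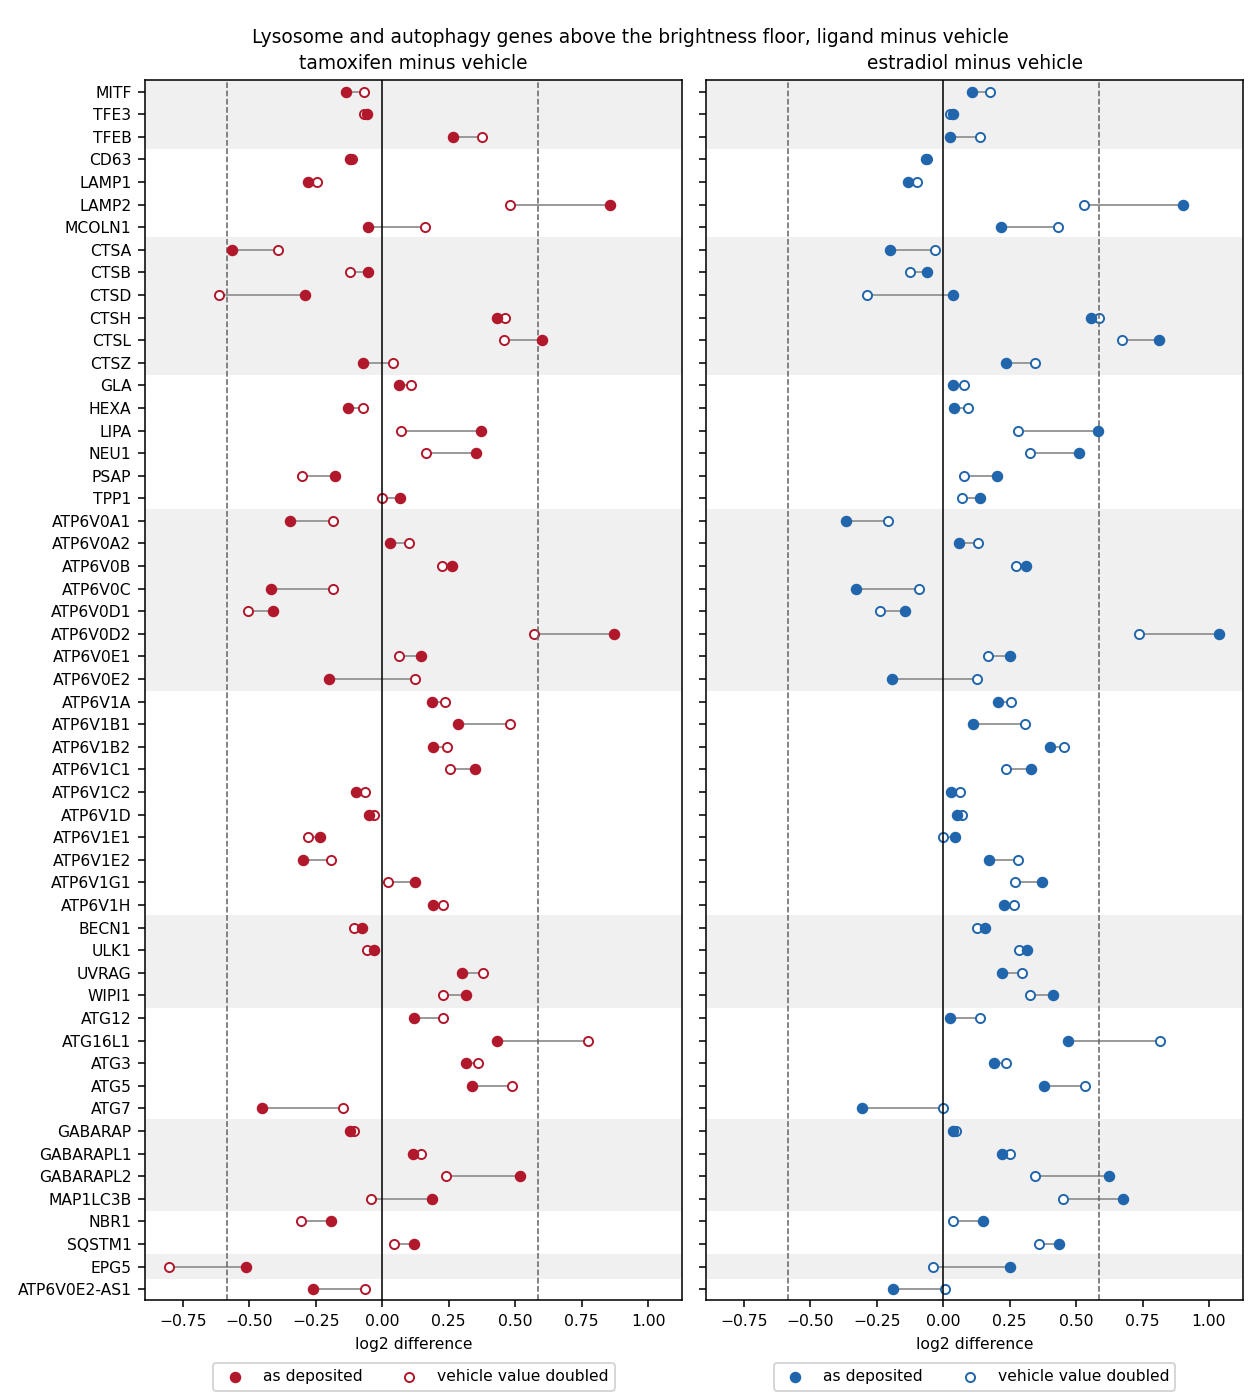
Log2 difference from vehicle (x axis) of each of the 54 genes (rows, shaded by role), tamoxifen on the left and estradiol on the right. Filled circles show values as deposited, open circles the vehicle value doubled, and dashed lines 1.5-fold; ATP6V0D2, LAMP2 and CTSL lie right of the line with both ligands as deposited, and with the vehicle doubled ATP6V0D2 and CTSL stay right of it with estradiol only.

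Autophagy starts with the ULK1 kinase and the BECN1 lipid kinase complex. ULK1 stood at a value close to 0 with tamoxifen, at 0.34 with estradiol and at 0.03 with vehicle. It was the initiation gene with the lowest tamoxifen minus estradiol difference (-0.35). BECN1 differed by -0.08 from vehicle with tamoxifen and 0.16 with estradiol. UVRAG, a partner of BECN1, was above vehicle by 0.30 and 0.22. WIPI1, which binds phosphatidylinositol 3-phosphate on the growing membrane, was above it by 0.32 and 0.41.

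The conjugation enzymes attach ATG8 proteins to membranes. ATG16L1, which with ATG5 and ATG12 forms the complex that marks the site, stood at 0.08 with tamoxifen, 0.12 with estradiol and -0.34 with vehicle, the lowest vehicle value of the group. Its differences were 0.43 and 0.47, and 0.77 and 0.81 with the vehicle doubled, from the 1 probe set above the floor. A second probe set, with a level below 2, went the other way as deposited (-0.27 and -0.18). ATG5 was above vehicle by 0.34 and 0.38, and all 3 of its probe sets were above 0 in both comparisons. ATG3, the E2-like enzyme, was above vehicle by 0.31 with tamoxifen and 0.19 with estradiol. ATG7, the E1-like enzyme that acts before it, was below vehicle, by differences of -0.45 and -0.31, although 1 of its 3 probe sets above the floor was above vehicle (0.21 and 0.04). ATG12 itself differed by 0.12 and 0.03, and 2 of its 3 probe sets were below vehicle with estradiol (lowest -0.25). So by gene value 4 of these 5 genes were above vehicle with both ligands and ATG7 was below it with both. With the vehicle doubled ATG7 differed by only -0.15 with tamoxifen and -0.0008 with estradiol.

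The ATG8 proteins sit on the autophagosome and bind its cargo receptors. MAP1LC3B, the usual marker of autophagosomes, stood at 0.41 with tamoxifen, 0.90 with estradiol and 0.23 with vehicle. It was 1.60-fold higher with estradiol (0.68), or 0.45 with the vehicle doubled, and differed by 0.19 with tamoxifen. Its dimmer probe set gave 0.04 with tamoxifen and 0.29 with estradiol. The tamoxifen minus estradiol difference of MAP1LC3B, -0.49, was the second lowest of the group. GABARAPL2 stood at 0.80 with tamoxifen, 0.90 with estradiol and 0.28 with vehicle, higher by 0.52 and 0.62, and by 0.24 and 0.35 with the vehicle doubled. Its relatives differed less: GABARAPL1 by 0.11 and 0.22, and GABARAP by -0.12 and 0.04. All 4 ATG8 genes were below estradiol with tamoxifen.

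The cargo receptors, which tie ubiquitinated material to ATG8 proteins, followed suit. SQSTM1 (p62) stood at 0.20 with tamoxifen, 0.51 with estradiol and 0.08 with vehicle. NBR1 stood at -0.08 with tamoxifen, 0.26 with estradiol and 0.11 with vehicle. Both were lower with tamoxifen than with estradiol, by differences of -0.32 and -0.34. All 4 probe sets of SQSTM1 above the floor were below 0 in this comparison, although against vehicle they ran from -0.79 to 0.12 with tamoxifen and from -0.58 to 0.44 with estradiol.

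EPG5, a tether needed for autophagosomes to fuse with lysosomes, had the largest difference between the ligands. It stood at -0.22 with tamoxifen, 0.54 with estradiol and 0.29 with vehicle, and was 1.70-fold lower with tamoxifen than with estradiol (-0.76). The 3 probe sets behind this value gave -1.36, -0.60 and -0.33. Of 4 more below the floor, 3 gave -1.11, -0.62 and -0.55, and 1 gave 0.07. Against vehicle the tamoxifen difference was -0.51, or -0.80 with the vehicle doubled. The estradiol difference was 0.25 or -0.04. The 5′ end of ACTB, given above, was also low on the tamoxifen array (tamoxifen minus estradiol -0.996); where along EPG5 these probe sets lie is not used here, and its part in the result was not tested.

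**Figure D4:**
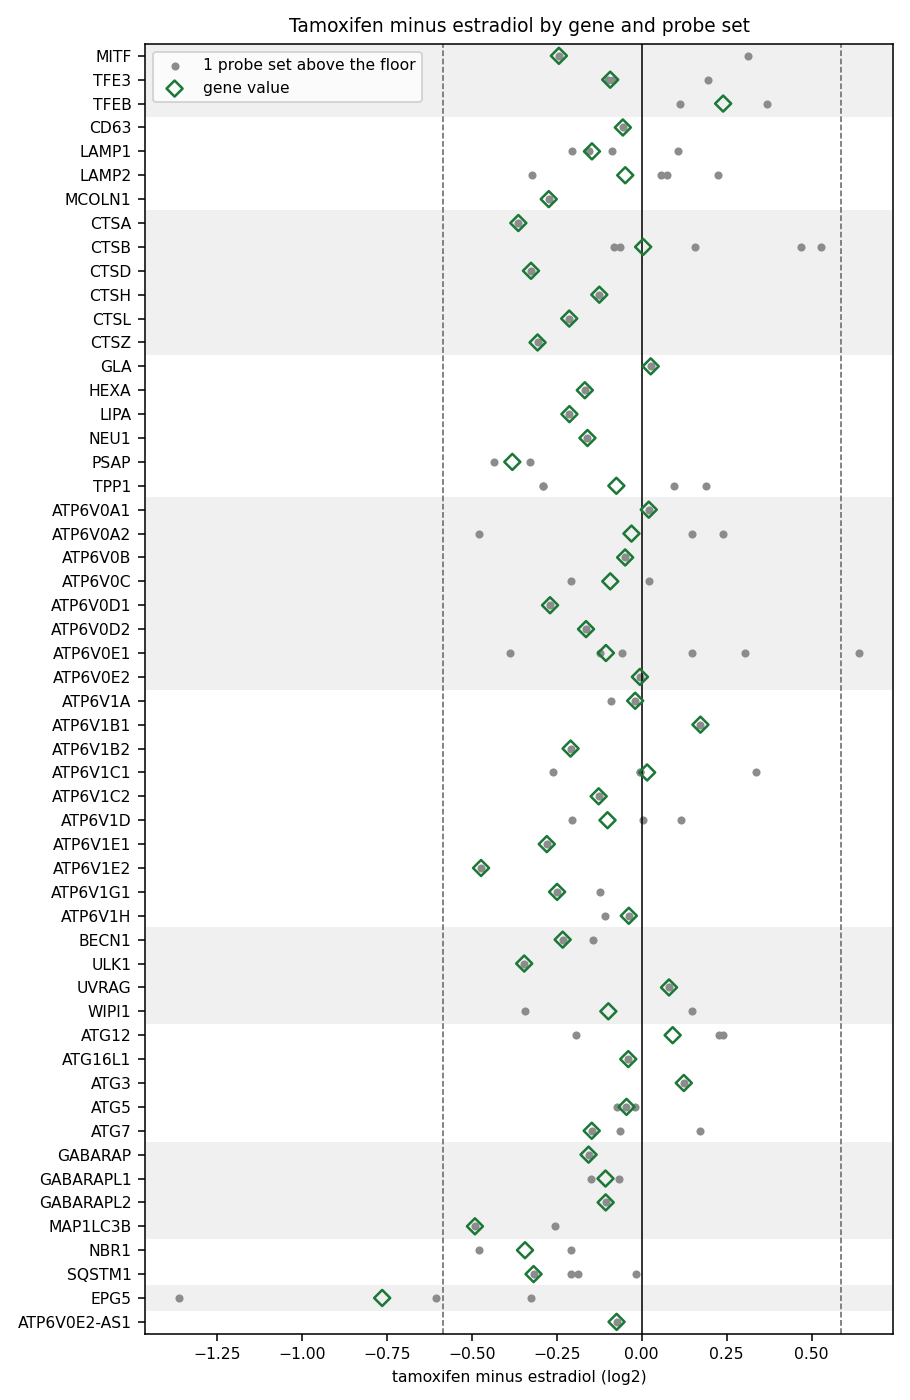
Tamoxifen minus estradiol (x axis, log2) for each of the 54 genes (rows, shaded by role), with open diamonds for gene values, grey points for single probe sets above the floor and dashed lines at 1.5-fold. Of the diamonds 45 lie left of 0, and EPG5 (-0.76) alone lies left of the dashed line.

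The 8 genes with GTCACGTG in the promoter window had a median tamoxifen minus estradiol difference of -0.26, with 7 of 8 below 0, and ATG3 above it at 0.12. The 33 other genes with a window and a value had a median of -0.11, with 28 below 0. Against vehicle the 8 genes had medians of -0.17 with tamoxifen and 0.11 with estradiol, and the 33 had 0.03 and 0.11. As deposited none of the 8 passed the size rule in any comparison. Of the 33, 1 was higher past it with tamoxifen than with vehicle and 3 with estradiol (backgrounds 6.97% and 5.83%). A set of 8 is too small to set its 0 against such shares. With the vehicle doubled CTSD, 1 of the 8, was lower past the rule with tamoxifen (-0.61, background 3.64%). Whether the 2 sets differ was not tested.

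Other genes of the pathway, from 3 further lists of known lysosome and autophagy genes, leaned below estradiol with tamoxifen to unequal degrees, against 53.1% of all named genes below 0. Of 29 other lysosomal hydrolases above the floor, 2 were higher (6.9%, background 6.97%) and 2 lower (6.9%, background 4.33%) past the rule with tamoxifen than with vehicle. With estradiol 4 were higher (13.8%, background 5.83%) and 1 lower (3.45%, background 2.65%). Doubling the vehicle gave counts of 1 and 1 with tamoxifen (3.45% each, backgrounds 7.15% and 3.64%). With estradiol it gave 2 and 0 (6.9% and 0%, backgrounds 4.39% and 1.92%). For tamoxifen minus estradiol 1 was lower (3.45%, background 2.2%), and 25 of the 29 were below 0 (86.2%), with a median of -0.14. FUCA1, a fucosidase, was above vehicle by 0.77 with tamoxifen and 0.81 with estradiol, and by 0.12 and 0.16 with the vehicle doubled. CTSO, a cysteine protease, stood at 0.71 with tamoxifen, 1.46 with estradiol and 0.61 with vehicle, and was the gene lower with tamoxifen than with estradiol (-0.76); its estradiol minus vehicle difference was 0.85, or 0.24 with the vehicle doubled. SGSH, which removes sulfate from heparan sulfate, was below vehicle with both (-0.65 and -0.63, or -0.44 and -0.42 with the vehicle doubled). ACP2, an acid phosphatase, was below it past the rule with tamoxifen (-0.66, or -0.69 with the vehicle doubled).

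Of 38 other membrane and traffic genes, 2 were higher (5.26%, background 6.97%) and 1 lower (2.63%, background 4.33%) with tamoxifen than with vehicle. With estradiol 4 were higher (10.5%, background 5.83%) and 0 lower (background 2.65%). Doubling the vehicle gave counts of 2 and 1 with tamoxifen (5.26% and 2.63%, backgrounds 7.15% and 3.64%). With estradiol it gave 2 and 0 (5.26% and 0%, backgrounds 4.39% and 1.92%). Between the ligands 0 passed (backgrounds 1.56% higher and 2.2% lower), and 30 of 38 were below 0 (78.9%, median -0.10). SLC17A5, the sialic acid exporter of the lysosome, was above vehicle by 1.13 with tamoxifen and 0.93 with estradiol, and by 0.87 and 0.67 with the vehicle doubled. RRAGB, a Rag GTPase that brings mTORC1 to the lysosome, was above it by 0.75 and 1.10, but with the vehicle doubled it differed by -0.35 with tamoxifen and 0.0026 with estradiol. SCARB2, a membrane protein that carries glucocerebrosidase, was above it by 0.56 and 0.66, or 0.33 and 0.42 with the vehicle doubled. TMEM175, a lysosomal potassium channel, was below vehicle with tamoxifen (-0.65, or -0.41 with the vehicle doubled) and differed by -0.55 between tamoxifen and estradiol.

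Of 39 other autophagy genes, 7 were higher (17.9%, background 6.97%) and 1 lower (2.56%, background 4.33%) with tamoxifen than with vehicle. With estradiol 6 were higher (15.4%, background 5.83%) and 0 lower (background 2.65%). Doubling the vehicle gave counts of 4 and 2 with tamoxifen (10.3% and 5.13%, backgrounds 7.15% and 3.64%). With estradiol it gave 4 and 1 (10.3% and 2.56%, backgrounds 4.39% and 1.92%). Between the ligands 0 passed (backgrounds 1.56% higher and 2.2% lower). In that comparison 23 of 39 were below 0 (59%, near the 53.1% of all named genes), with a median of -0.07. ULK2, the paralog of ULK1, was above vehicle by 1.09 and 1.28, and by 0.07 and 0.26 with the vehicle doubled. ATG4A, a protease that trims ATG8 proteins, was above it by 0.72 and 0.64 and kept 0.75 and 0.67. BNIP3, a mitophagy receptor induced by hypoxia, was above it by 0.73 and 0.73, or 0.47 and 0.47 with the vehicle doubled. SH3GLB1, a membrane-bending partner of UVRAG, was above it by 0.71 and 0.87, or 0.18 and 0.35, so neither gene passed the rule in that setting. TP53INP2, a nuclear and autophagosomal cofactor, was the gene below vehicle with tamoxifen (-0.67, or -0.81 with the vehicle doubled).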

How the data were processed

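The authors deposited log2 values for 54675 probe sets in 3 columns, 1 for each sample; no label says whether a column averages several arrays or cultures. RMA is named in the submitters' processing notes, and the centring baseline, log base and direction are not given in the sources used here. Per the file's own numbers, single-precision steps gave each probe set a brightness band, a step finer in the vehicle column being allowed for. On 54675 simulated probe sets 88.7% fell in their true band and 8.8% of those under 4 passed the floor. The simulated levels were drawn away from the band edges, with the finer vehicle step built in. These shares may therefore be better than those for the real values. Probe sets were named through the platform annotation (41097 with 1 symbol, 1801 with several, 11777 not listed, 0 symbols updated). Where several probe sets of a gene shared its brightest band, they were averaged, and dimmer ones were left out of the gene value. Of 113 probe sets of ribosomal protein genes 89.4% lay above the floor, of 107 of olfactory receptor genes 13.1%.

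All 3 comparisons were differences of log2 values, with a size rule of 1.5-fold and no test. The number of arrays limits precision. No column of the table was left unused. Genes named are members past the rule in any comparison, 21 fixed members, and up to 4 genes of each further list with the largest differences per comparison, some of which are given; other members were named after their values were seen. The members and lists were chosen with earlier results of these data known. Python 3.11.15, numpy 2.4.6 and pandas 2.3.3 were used. The alternatives were a doubled vehicle value, no floor, a floor of 8, no _x_at or _s_at probe sets, the mean of all probe sets, 2 kinds of centring and a 2-fold rule.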

Additional observations from a re-analysis of the deposited data

How the results depend on the processing

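With 1 array a group, no spread could be set against any change of setting, and the cause of a change was not tested unless fewer genes show it. No paired analysis was possible because each group held 1 array. With the vehicle doubled, the genes higher and lower with tamoxifen numbered 1 and 2 (all genes 7.15% and 3.64%) in place of 3 and 0. A floor of 8 left 36 genes, of which 1 was higher with tamoxifen (all genes 6.59%) and 3 with estradiol (5.07%) against vehicle, and 0 were lower with tamoxifen than with estradiol (1.44%). Without _x_at and _s_at probe sets 37 genes were left, with 1 lower with tamoxifen (all genes 4.72%) and 2 higher with estradiol (5.79%). Averaging all probe sets, or centring within brightness bands, put 1 gene lower than vehicle with tamoxifen (all genes 3.21% and 4.83%). Centring on the median of named genes left 2 genes higher with tamoxifen (all genes 6.54%), with CTSL under the rule. At 2-fold 0 genes were higher with tamoxifen (all genes 1.23%), 1 was higher with estradiol (1.09%) and 0 were lower between the ligands (0.24%). Over single named members, 378 of 392 recomputed values kept their side of the rule, 14 did not and 0 called values changed sign. The median of tamoxifen minus estradiol stayed between -0.15 and -0.09 in the settings tried. With all probe sets averaged, 41 of 54 genes were below 0 for tamoxifen minus estradiol and 36 of 54 above 0 for estradiol minus vehicle, fewer than the 45 and 44 reported. The tamoxifen minus vehicle median changed sign, being -0.05 with a floor of 8, -0.07 without _x_at and _s_at and -0.02 with all probe sets averaged. For tamoxifen minus vehicle, SQSTM1 differed by -0.62 without those types and EPG5 by -0.79 with all probe sets averaged.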
